A study of Homo sapiens with 6 samples.

Results

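EZH1, EZH2, EED, SUZ12, JARID2, BMI1, CBX2, CBX7 and CBX8 are 9 genes that encode subunits of the Polycomb repressive complexes PRC1 and PRC2. They were chosen by name from the 47470 genes listed in an RNA-seq count table, and all 9 were among the 15298 genes that passed the filter on low counts. The cells were HEK293T, an established human cell line derived from embryonic kidney and made to express a viral T antigen. One group of 3 libraries came from untreated cells, and the other group of 3 came from cells kept for 1 day in medium with 1 mM valproic acid (VPA). Both groups grew in DMEM with fetal bovine serum, no vehicle was named for the untreated cells, and 1 line at 1 dose and 1 time was studied. The comparison asks how the transcripts of the complexes differed in cells given VPA, a short branched fatty acid that inhibits class I and class IIa histone deacetylases.

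Polycomb complexes keep developmental genes silent. PRC2 methylates lysine 27 of histone H3, with EZH1 or EZH2 as its catalytic subunit and EED and SUZ12 as the subunits that make it active. EED binds the finished mark and stimulates the enzyme, and JARID2 is an accessory subunit that helps to bring the complex to chromatin. PRC1 ubiquitinates histone H2A. BMI1, also called PCGF4, partners its ubiquitin ligase, and CBX2, CBX7 and CBX8 are alternative chromodomain subunits by which canonical PRC1 reads the mark laid down by PRC2. Acetylation and methylation of lysine 27 cannot occupy the same residue, which is why Polycomb genes are of interest in cells given a deacetylase inhibitor.

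The promoters of the paralogous enzymes EZH1 and EZH2, and of JARID2 and CBX7, are shown here because the results turn on these genes or on their ratio. Each is the 250 bases before the gene's start in RefSeq (GRCh38.p14), written 5' to 3' on the strand of the gene. Capitals mark every match, on either strand, to the GC box GGGCGG, to CCAAT, to the cyclic AMP response element TGACGTCA, or to the E2F letters TTTCGCGC, TTTGGCGC, TTTCCCGC and TTTGCCGC. Neighbouring matches run together.
EZH1, chr17:42745041-42745290, minus strand: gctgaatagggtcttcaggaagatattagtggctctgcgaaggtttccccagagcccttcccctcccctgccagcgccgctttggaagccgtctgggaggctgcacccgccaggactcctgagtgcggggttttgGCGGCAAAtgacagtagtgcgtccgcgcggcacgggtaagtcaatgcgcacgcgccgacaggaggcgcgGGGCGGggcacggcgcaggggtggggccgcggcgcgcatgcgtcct
EZH2, chr7:148884292-148884541, minus strand: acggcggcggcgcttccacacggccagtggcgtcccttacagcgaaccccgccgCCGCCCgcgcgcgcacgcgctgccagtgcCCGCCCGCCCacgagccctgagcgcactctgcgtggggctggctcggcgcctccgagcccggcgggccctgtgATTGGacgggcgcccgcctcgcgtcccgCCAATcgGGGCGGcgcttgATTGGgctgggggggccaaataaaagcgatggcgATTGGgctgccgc
JARID2, chr6:15245819-15246068, plus strand: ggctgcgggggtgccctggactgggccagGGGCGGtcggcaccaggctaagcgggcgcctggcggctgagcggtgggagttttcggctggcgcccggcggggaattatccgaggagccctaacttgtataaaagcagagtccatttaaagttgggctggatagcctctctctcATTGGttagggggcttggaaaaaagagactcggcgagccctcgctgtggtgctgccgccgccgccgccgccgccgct
CBX7, chr22:39152681-39152930, minus strand: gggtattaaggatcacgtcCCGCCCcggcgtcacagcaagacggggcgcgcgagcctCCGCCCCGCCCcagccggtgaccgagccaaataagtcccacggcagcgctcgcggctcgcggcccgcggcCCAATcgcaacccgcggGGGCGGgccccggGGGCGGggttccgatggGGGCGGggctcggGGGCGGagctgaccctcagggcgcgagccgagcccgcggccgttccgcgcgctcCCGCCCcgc
The paralogs differed in these letters. On the same strands EZH1 spans chr17:42700275-42745040 and EZH2 spans chr7:148807383-148884291, each starting at the last base of its range, and CBX7 spans chr22:39130772-39152680. EZH2 had 4 GC boxes, 4 CCAAT matches and 38 CpG dinucleotides. EZH1 had 1 GC box, no CCAAT match, 1 E2F match and 26 CpG dinucleotides. CBX7, the member with the largest increase, had 8 GC boxes, 1 CCAAT match and 41 CpG dinucleotides. JARID2 had 1 GC box, 1 CCAAT match and 22 CpG dinucleotides. Over all 35116 promoters of the same length the median was 11 CpG dinucleotides, 42.6% held a GC box, 32.0% held CCAAT, 2.79% held the E2F letters and 1.65% held the cyclic AMP response element. EED, BMI1 and SUZ12 were the other members with an entry, with 11, 35 and 34 CpG dinucleotides. A match is a description of the letters and not a measured binding site.

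The libraries were alike in depth. Between 18622267 and 18828495 read counts fell on genes per library. BMI1 rested on 455 raw counts over all 6 libraries, CBX7 on 1422, and the most deeply counted member, EZH2, on 16411. Counts were scaled by the trimmed mean of M values (TMM), and a normalized count is a raw count divided by its library's relative effective size. All 6 HEK293T markers (KRT8, KRT18, VIM, CDH2, PAX2 and LIN28B) had counts, and their sum was 15359 to 15680 in untreated and 14738 to 15354 in VPA-treated libraries. VIM made up most of that sum, and single markers differed in either direction, from PAX2 (fold change 4.78) and KRT8 (2.58) to LIN28B (0.854), VIM (0.832) and CDH2 (0.771). The 3 leukocyte markers PTPRC, CD3E and CD14 summed to 4 to 11 and 6 to 16 counts. The endothelial pair of markers summed to 0 to 1 and 1 to 5, and the hepatocyte pair to 0 to 3 and 0 to 2. All 1437 listed genes of chromosome X were at 0 in every library, and none of the 9 genes lies on that chromosome. In bulk RNA, fewer cells of a kind and less transcript per cell cannot be told apart.

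At an adjusted p under 0.05 (edgeR quasi-likelihood test with Benjamini-Hochberg adjustment over 15298 genes), 2 of the 9 genes were higher in VPA-treated cells and 4 were lower. EZH1 and CBX7 were higher. EZH2, EED, JARID2 and BMI1 were lower, of which EZH2 and EED flipped in sign under scaling to ribosomal protein genes. The flipped values did not pass (adjusted p of 0.0637 and 0.625 by edgeR). SUZ12, CBX2 and CBX8 did not pass under TMM, but passed as higher under that ribosomal scaling. The same 6 genes were those whose normalized counts did not overlap between the groups, as was the case, higher or lower, for 34.8% and 31.0% of all tested genes. Of all tested genes 32.9% were higher and 30.0% were lower, so 22.2% and 44.4% of the 9 genes are not in themselves a result about the complexes. The median log2 fold change of the 9 was -0.042, against 0.0058 over all tested genes. No member reached a log2 fold change of 1 in size along with the adjusted p in edgeR or DESeq2, although 6 had an unadjusted p under 0.05 in edgeR. Over all tested genes, 12.0% were higher and 0.503% were lower past both thresholds.

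**Figure D1:**
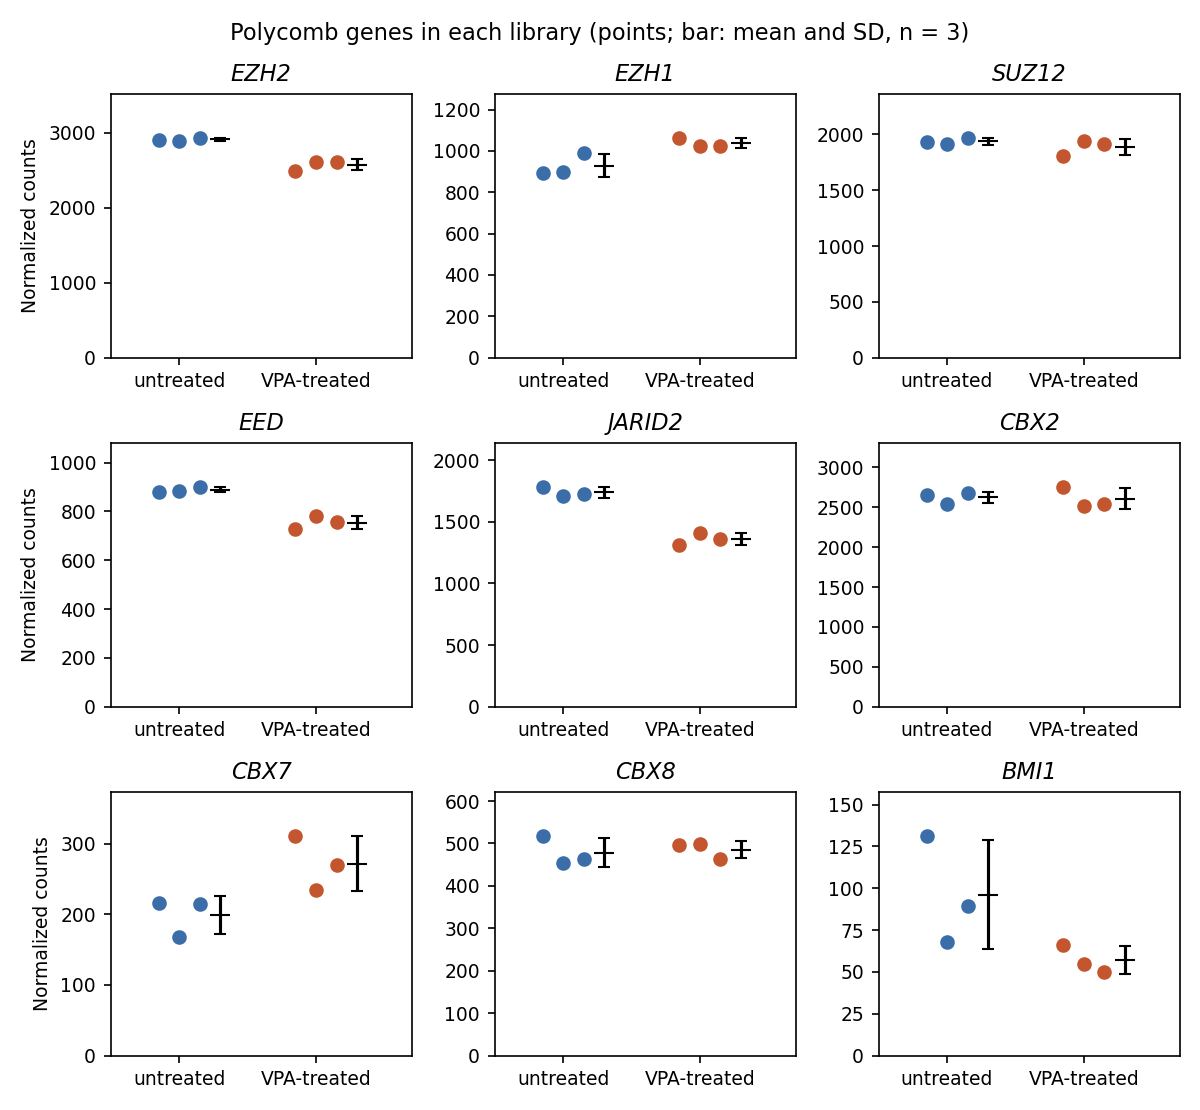
Normalized counts (vertical axis, linear from 0, TMM scaling) of the 9 Polycomb genes in the 3 untreated (blue) and 3 VPA-treated (orange) libraries. Points are libraries and the bar beside them gives the mean and SD. EZH2, EED, JARID2 and BMI1 lie lower without overlap after VPA, EZH1 and CBX7 lie higher without overlap, and the groups of SUZ12, CBX2 and CBX8 overlap. The direction of EZH2 and EED flips under scaling to ribosomal protein genes.

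EZH2 and EZH1, the alternative methyltransferases of PRC2, differed in opposite directions under TMM. Under scaling to ribosomal protein genes the sign of EZH2 flipped, without passing (adjusted p = 0.0637 by edgeR). EZH2, the form linked to dividing cells, had 2906, 2895 and 2937 normalized counts in untreated cells and 2488, 2617 and 2611 after VPA. Every untreated library was above every VPA-treated one. Its fold change was 0.883 (95% interval 0.833 to 0.936), with a log2 fold change of -0.18 ± 0.040 (SE) and an adjusted p of 0.000582 by edgeR. EZH1, the form that persists in non-dividing cells, had 892, 899 and 991 normalized counts untreated and 1065, 1024 and 1025 after VPA. The third untreated library stood closest to the VPA-treated ones, without overlap. The fold change of EZH1 was 1.12 (95% interval 1.04 to 1.21), with a log2 fold change of 0.16 ± 0.053 (SE) and an adjusted p of 0.0112 by edgeR. This call was the weakest of the 6. It was lost without untreated replicate 1 (log2 fold change 0.13, adjusted p = 0.0502) and without untreated replicate 2 (0.13, adjusted p = 0.0689), and DESeq2 gave 0.14 with an adjusted p of 0.0958.

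Ratios taken within a library need no scaling, so they describe the pair directly. The raw count of EZH1 over that of EZH2 was 0.307, 0.311 and 0.337 in the untreated libraries. After VPA it was 0.428, 0.391 and 0.393, so each of the 3 VPA-treated libraries was above each untreated one. The group means were 0.318 ± 0.017 (SD, n = 3) and 0.404 ± 0.021 (SD, n = 3), a 1.27-fold difference. EZH2 remained the more abundant transcript of the pair in every library. Per kilobase of transcript the ratio of EZH1 to EZH2 ran from 0.176 to 0.193 in untreated and from 0.224 to 0.245 in VPA-treated libraries.

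Of the other core subunits EED was lower after VPA under TMM. With scaling to ribosomal protein genes its sign flipped, without passing (adjusted p = 0.625 by edgeR). SUZ12 did not pass the test under TMM. EED lies at chr11:86244753-86287615 and SUZ12 at chr17:31937007-32001038, each on the plus strand. EED had 881, 883 and 902 normalized counts in untreated libraries and 728, 779 and 754 after VPA. The groups of EED were apart, with SDs of 11.3 and 25.5. The fold change of EED was 0.848 (95% interval 0.787 to 0.915), with a log2 fold change of -0.24 ± 0.052 (SE) and an adjusted p of 0.00047 by edgeR. SUZ12 had 1932, 1912 and 1972 normalized counts untreated and 1802.5, 1938 and 1910.1 after VPA. Its groups overlapped, and the second VPA-treated library lay within the untreated range. The log2 fold change of SUZ12 was -0.042 (95% interval -0.13 to 0.050) with an adjusted p of 0.423 by edgeR. The interval leaves room for a decrease of up to 0.13 on the log2 scale. The raw ratio of EED to SUZ12 was 0.456, 0.462 and 0.457 in untreated libraries and 0.404, 0.402 and 0.395 after VPA. SUZ12 has a partial copy, the pseudogene SUZ12P1, whose own raw counts were 294 to 311 in untreated and 304 to 343 in VPA-treated libraries. Between 2.81% and 2.92% of the counted reads in a library were on the line for reads without a unique alignment. How many of these came from SUZ12 or SUZ12P1 is not given in the sources used here.

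JARID2 had the smallest adjusted p of the 9. It held 1786, 1706 and 1723 normalized counts in the untreated libraries against 1314, 1412 and 1359 in the VPA-treated ones, and the gap between the groups was wider than the range within either. Its fold change was 0.783 (95% interval 0.733 to 0.837), with a log2 fold change of -0.35 ± 0.046 (SE) and an adjusted p of 8.47e-07 by edgeR. The gene spans chr6:15246069-15522042 and overlaps an antisense RNA, JARID2-AS1, which had 0 to 3 counts in each library. AEBP2, which pairs with JARID2 in the same form of PRC2, had a log2 fold change of 0.12 ± 0.057 (SE) and an adjusted p of 0.0627 by edgeR. The raw ratio of AEBP2 to JARID2 averaged 0.361 ± 0.012 (SD, n = 3) in untreated and 0.502 ± 0.0060 (SD, n = 3) in VPA-treated libraries, a 1.39-fold difference. Against SUZ12, which every form of PRC2 contains, JARID2 had raw ratios of 0.924, 0.892 and 0.873 untreated and 0.729, 0.729 and 0.711 after VPA. These groups did not overlap either.

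CBX7, CBX2 and CBX8 are alternative readers of the PRC2 mark, and 1 of the 3 passed as higher under TMM. CBX7 had 215, 169 and 214 normalized counts untreated and 311, 234 and 269 after VPA. The lowest VPA-treated library exceeded the highest untreated one by a narrow margin. Its fold change was 1.36 (95% interval 1.16 to 1.60), with a log2 fold change of 0.45 ± 0.11 (SE) and an adjusted p of 0.00146 by edgeR. CBX2 had 2657, 2546 and 2678 normalized counts untreated and 2761, 2513 and 2548 after VPA, and its groups overlapped. The log2 fold change of CBX2 was -0.011 (95% interval -0.10 to 0.082). CBX8 had 519, 453 and 464 normalized counts untreated and 496, 498 and 462 after VPA, again with overlap. The log2 fold change of CBX8 was 0.021 (95% interval -0.12 to 0.16). The adjusted p was 0.848 for CBX2 and 0.805 for CBX8 by edgeR. The intervals leave room for increases of up to 0.082 in CBX2 and 0.16 in CBX8 on the log2 scale. CBX2 (chr17:79777311-79787983, plus strand) and CBX8 (chr17:79792132-79797077, minus strand) lie 4148 bases apart.

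CBX7 was a minor part of these transcripts in either group. Of the counts per kilobase on CBX2, CBX6, CBX7 and CBX8, CBX7 took 2.81% ± 0.33 (SD, n = 3) in untreated and 3.93% ± 0.44 (SD, n = 3) in VPA-treated libraries, with ranges that did not overlap. CBX6, a related chromodomain gene, took 56.9% and 54.8%, CBX2 took 32.9% and 33.6%, and CBX8 took 7.38% and 7.72%. The ranges of the groups overlapped for each of these 3 genes.

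**Figure D2:**
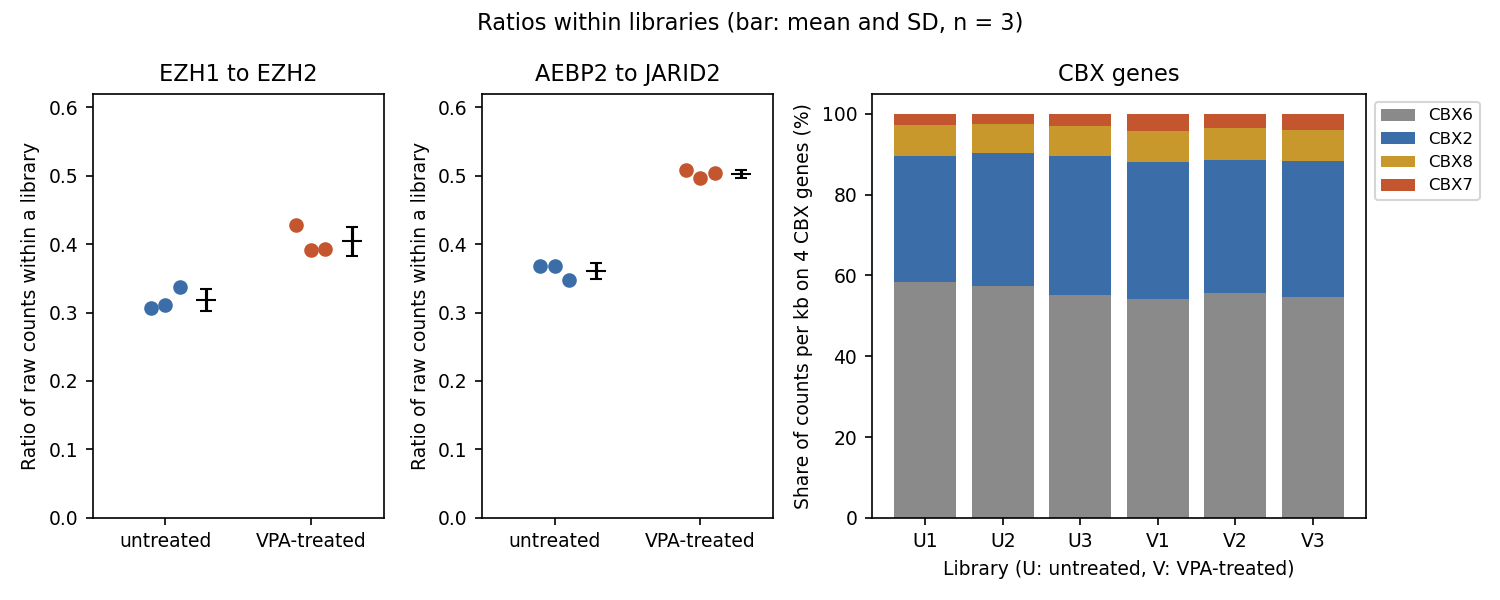
Ratios within each library that do not depend on scaling. Left and middle: raw counts of EZH1 over EZH2 and of AEBP2 over JARID2, with points for libraries and a bar for the mean and SD, and in each the VPA-treated libraries lie above the untreated ones. Right: share of the counts per kilobase (percent, stacked to 100) on 4 CBX genes in each library, where CBX7 is the smallest share throughout.

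BMI1 had the largest fold change of the 9 and the least certain count. Untreated libraries gave 131, 68.0 and 89.2 normalized counts, and VPA-treated ones gave 66.1, 54.9 and 49.8. The first untreated library stood far above the other 2, and the highest VPA-treated library came within a few counts of the lowest untreated one. Its fold change was 0.591 (95% interval 0.434 to 0.805), with a log2 fold change of -0.76 ± 0.21 (SE) and an adjusted p of 0.00522 by edgeR. Without untreated replicate 1 the log2 fold change was -0.47 with an adjusted p of 0.0194. BMI1 (chr10:22321099-22331706) overlaps a readthrough gene, COMMD3-BMI1 (chr10:22316388-22331484), which in RefSeq ends 222 bases before BMI1 does. In GENCODE 44, 9 of the 10 exons of the BMI1 MANE transcript, the chosen reference transcript of a gene, share bases with COMMD3-BMI1. There 2540 of the 3540 bases of that transcript lie outside the exons of COMMD3-BMI1. Which annotation was used for counting is not given in the sources used here. COMMD3-BMI1 was listed at 0 in every library, and a counter in its default mode sets reads that hit both genes aside as ambiguous. Between 1.97% and 2.10% of the counted reads in a library were on the line for ambiguous reads. The counting mode used is not given in the sources used here, so the level of BMI1 was not set against those of the other genes. COMMD3, the upstream neighbour, had 48, 57 and 50 raw counts untreated and 37, 38 and 50 after VPA, with a log2 fold change of -0.43 and an adjusted p of 0.0352 by edgeR. The part of the shared locus in the BMI1 difference was not tested.

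The order of the other 8 genes was set by normalized counts per kilobase of MANE transcript. In untreated libraries EZH2 was highest at 1098 ± 8.19 (SD, n = 3), which placed it at the percentile 89.1 of 12805 tested genes with such a length. CBX2 followed at 568, SUZ12 at 431, EED at 426, JARID2 at 289.6, EZH1 at 200.2, CBX8 at 128 and CBX7 at 48.5 counts per kilobase. Neighbours in this order had ranges that did not overlap, except SUZ12 and EED. After VPA the order of the means was unchanged, but the neighbours that could be separated were different. EED at 361 then lay below the whole range of SUZ12, which averaged 419. The place of SUZ12 in either order carries the unknown number of reads that it shares with SUZ12P1. JARID2 at 227 and EZH1 at 224 counts per kilobase had overlapping ranges.

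**Figure D3:**
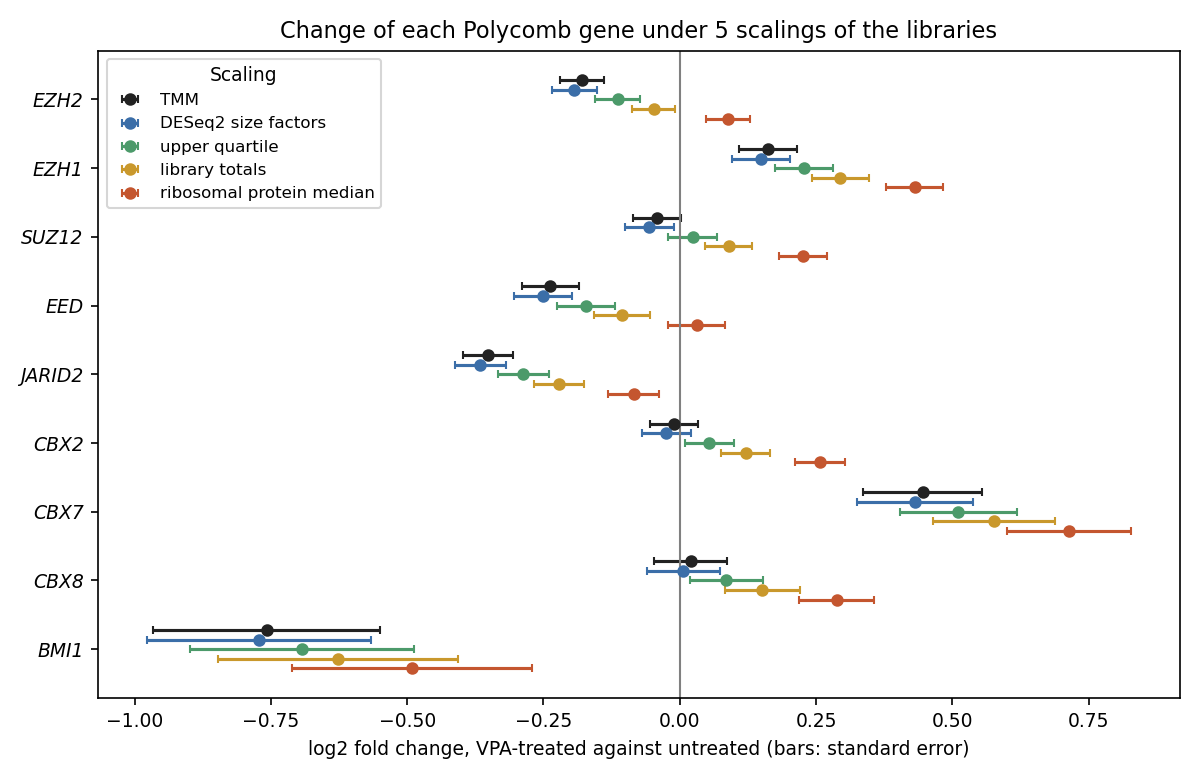
Log2 fold change (horizontal axis) of each gene in VPA-treated against untreated libraries under 5 ways to scale the libraries, with standard errors as bars. Each gene shifts by nearly the same amount from one scaling to the next. EZH1, CBX7 and CBX8 stay above 0 and JARID2 and BMI1 stay below 0 under all 5, EZH2 and EED cross 0 under ribosomal protein scaling, and SUZ12 and CBX2 change sign.

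The direction of a small difference depended on what the libraries were scaled to. TMM and DESeq2 size factors left the median of all tested genes at 0.0058 and -0.0081 on the log2 scale, upper quartile scaling at 0.071, library totals at 0.14, and the median of ribosomal protein genes at 0.27. The members higher and lower were 2 and 4 with TMM, DESeq2 size factors and upper quartile. They were 3 and 2 with library totals, and 5 and 0 with ribosomal protein scaling, where 91.3% of all calls were higher, against 52.3% with TMM. CBX2 was the gene gained as higher with library totals (adjusted p = 0.0251 by edgeR). With ribosomal protein scaling SUZ12, CBX2 and CBX8 were gained as higher, with edgeR adjusted p of 0.000167, 5.59e-05 and 0.00112. EZH1 and CBX7 passed as higher under all 5. JARID2 and BMI1 passed as lower under 4, with adjusted p of 0.121 and 0.0645 by edgeR under ribosomal protein scaling. EZH2 and EED passed as lower under 3. With library totals their edgeR adjusted p were 0.308 and 0.0853. Under ribosomal protein scaling their log2 fold changes were 0.088 and 0.031, with edgeR adjusted p of 0.0637 and 0.625. Measured from the median of all tested genes, the differences were the same under all 5 to 2 decimals in EZH2, at -0.19, and in EED, at -0.24. The corresponding values with TMM were 0.16 for EZH1, 0.44 for CBX7, -0.36 for JARID2 and -0.76 for BMI1. A scaling moves each gene and the median alike, so this sameness was fixed in advance. It does not tell which scaling gives the true direction.

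The rest of the Polycomb machinery was described from a list of 52 further genes, of which 46 were tested. At the adjusted p by edgeR, 3 of the 46 were higher (6.52%) and 22 were lower (47.8%), beside the 32.9% and 30.0% of all tested genes. None passed both thresholds in edgeR, while 28 had an unadjusted p under 0.05, and the median log2 fold change was -0.15. With library totals the counts were 15 higher and 8 lower, and with ribosomal protein scaling 23 and 2. The lower genes were spread over the roles. They included 8 of 13 variant PRC1 genes, 4 of 7 further PRC1 core genes, 5 of 10 genes of enzymes that oppose Polycomb and their partners, 2 of 3 genes of the PhoRC type and RBBP4, the 1 further PRC2 core gene tested. Of the further canonical PRC1 genes, 1 of 5 was higher and 1 was lower, and of the further PRC2 accessory genes 1 of 7 was higher and 1 was lower.

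Of the 3 genes that were higher, EPOP, an accessory subunit of the other form of PRC2, had a log2 fold change of 0.48 with an adjusted p of 1.16e-07 by edgeR. ASXL3, a partner of the H2A deubiquitinase BAP1, had 0.66 with an adjusted p of 4.26e-06. PHC1, a canonical PRC1 subunit that forms polymers, had 0.31 with an adjusted p of 0.000358. Of the lower genes, AUTS2, which is found in a variant PRC1, had the smallest p, with a log2 fold change of -0.51 and an adjusted p of 2.58e-08. L3MBTL2, of another variant complex, had -0.43 with an adjusted p of 4.69e-08. BAP1 itself had -0.33 with an adjusted p of 6.3e-07, and ASXL1, its partner, had -0.31 with an adjusted p of 5.54e-07. Under ribosomal protein scaling BAP1 (-0.061, adjusted p = 0.202 by edgeR) and ASXL1 (-0.037, 0.403) lost their calls. AUTS2 (-0.24, 0.000702) and L3MBTL2 (-0.16, 0.00393) kept theirs. RBBP7, EZHIP, SCML2, BCOR, BCORL1 and KDM6A, all on chromosome X, were listed at 0 and were not tested. Every listed gene of that chromosome was at 0, so these values do not show that the genes were silent.

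**Figure D4:**
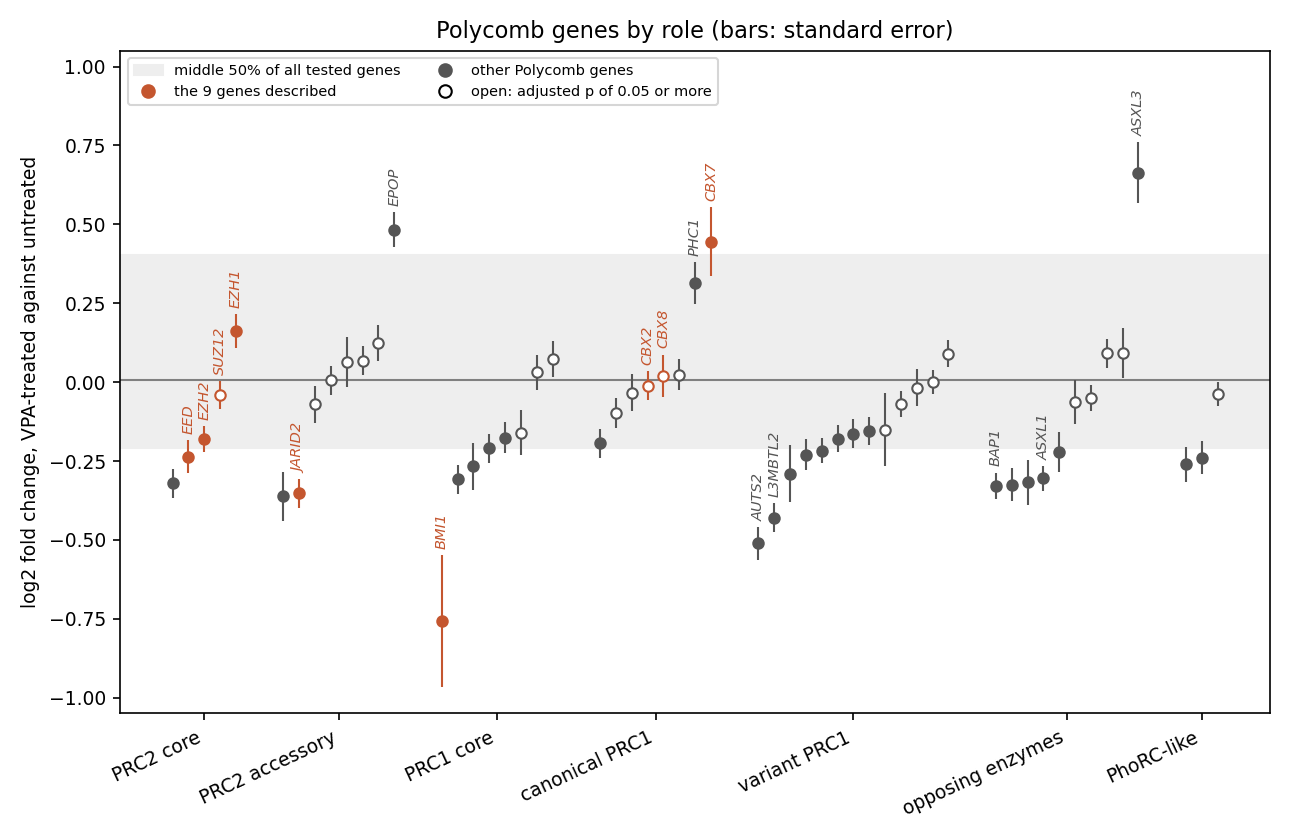
Log2 fold change (vertical axis) of the tested Polycomb genes grouped by role, with standard errors, VPA-treated against untreated, under TMM scaling. The 9 genes described are orange, filled points have an adjusted p under 0.05, the grey band holds the middle 50% of all tested genes, and the line is their median of 0.0058. All points but BMI1, below, and ASXL3, above, lie between -0.51 and 0.48.

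Genes that PRC2 is known to silence in many cell types were taken from a list of 15 developmental regulators and cell cycle inhibitors. Of the 12 tested, 6 were higher and 3 were lower at the adjusted p by edgeR, with a median log2 fold change of 0.40, beside 32.9% higher and 30.0% lower over all tested genes. Past both thresholds, beside 12.0% of all tested genes in this direction, were TBXT (2.29), PAX7 (1.71) and NKX2-2 (1.17), which are transcription factors of mesoderm, muscle and neural tube. They had few counts, with 52, 215 and 370 over the 6 libraries. The lower genes were GATA6 (log2 fold change -0.71), PAX6 (-0.46) and ISL1 (-0.38). These 3 were not silent in untreated cells, with means of 993, 753 and 506 normalized counts. TBXT, PAX7 and NKX2-2 had untreated means of 2.79, 16.4 and 37.2. Whether PRC2 silences any of these genes in this line was not tested. Under ribosomal protein scaling GATA6 and PAX6 still passed as lower (edgeR adjusted p of 4.44e-06 and 0.0232) and ISL1 did not (0.116). TBX5, FOXA2 and NEUROG1 were under the filter. Among the targets PRC1 is best known for, CDKN2A had a log2 fold change of -0.26 and an adjusted p of 0.161 by edgeR, and CDKN2B had 0.087 with 0.349.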

How the data were processed

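RNA of untreated and VPA-treated HEK293T cells was sequenced from strand-specific mRNA libraries on DNBSEQ, in 3 libraries per group. The authors filtered the reads (SOAPnuke), mapped them with STAR (2.7.10b in the submitters' processing notes) against hg38 and counted them with HTSeq (2.0.1 there), and the deposited values are raw read counts per gene. The annotation and strand setting are not given in the sources used here. Between 11.8% and 12.7% of the counted reads in a library fell on the 5 lines that name no gene, which were left out. Totals on genes were 18622267 to 18828495 per library. The labels do not say that replicates were separate cultures, so p-values measure the spread between these libraries, which may be technical.

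The test was that of edgeR 4.0.16 under R 4.3.3 applied to the raw counts (robust quasi-likelihood test, TMM, filterByExpr with a minimum of 10 counts, prior count 0.125), with Benjamini-Hochberg adjustment over 15298 genes, at an adjusted p of 0.05 and, for both thresholds, a change of 1 or more on the log2 scale in either direction. The code was tested on simulated data. DESeq2 1.42.0, 4 other scalings, other filters and prior counts, a stricter threshold, a replicate block and leaving out each library were alternatives. Standard errors and 95% intervals are from the edgeR fit. Lengths are of MANE transcripts in GENCODE 44, and gene positions and promoters are from RefSeq (GRCh38.p14), where 7 of the 9 genes had a promoter entry.

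The 9 genes and the lists were chosen with earlier results of these data known. Named were the 9 genes, the further Polycomb genes of smallest p in each direction (up to 4), those past both thresholds, those not tested, the targets past both thresholds or lower, and, for the 3 members with the largest fold change in size, the 3 tested genes (mean of at least 100 normalized counts) of highest Pearson r. AEBP2, COMMD3, SUZ12P1, JARID2-AS1, CBX6, CDKN2A and CDKN2B were named outside this rule, after their values were seen. Genes left out of the lists are not reported here.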

Additional observations from a re-analysis of the deposited data

How the results depend on the processing

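Fold changes of single genes were compared with the main fit in 351 cases. Of these, 324 kept their direction and side of the threshold, 11 kept the direction but lost the call, and 1 kept the direction and gained a call. The other 15 changed sign and were counted apart, whichever side of the threshold they were on. Among those 15, EZH2 and EED lost their calls, SUZ12 gained one with ribosomal protein scaling, and CBX2 gained one with that and with library totals. The setting with an adjusted p of 0.01 reuses the main fold changes, so no direction could differ there. The setting with a prior count of 2 changes only the reported fold changes and keeps the main adjusted p, so no call could differ there. The members higher (2) became 5 with ribosomal protein scaling, 1 with DESeq2, 1 at an adjusted p of 0.01, and 1 to 2 when single libraries were left out, and the members lower (4) became 2 under library totals and 0 under the ribosomal scaling. The further Polycomb genes higher (3) became 8 with upper quartile scaling, 15 with library totals, 23 with ribosomal protein scaling, 6 with at least 10 counts in every library and 6 with a replicate block, and those lower (22) became 8 under library totals and 2 under the ribosomal scaling. The log2 fold changes that changed sign were those of EZH2 (0.088) and EED (0.031) with ribosomal protein scaling, SUZ12 with upper quartile (0.024), library totals (0.090) and ribosomal protein scaling (0.23), CBX2 with the same 3 (0.054, 0.12 and 0.26), and CBX2 with at least 10 counts in every library (0.012). CBX8 changed sign with DESeq2 (-0.0039) and without a filter (-0.0011). When single libraries were left out CBX2 ran from -0.054 to 0.014 and CBX8 from -0.025 to 0.076, and EZH2, EED, JARID2, BMI1 and CBX7 kept their calls in all 6. The scalings move every gene by a common amount, and for the other changes the cause was not tested. Whether replicate numbers pair the libraries is not stated in the labels, and the correlations do not settle it. Residuals of the same numbers correlated at 0.12, 0.016 and 0.065, and those of different numbers at -0.092 to 0.031. With the replicate block, 2 members were higher and 4 lower, as without it, but the standard errors of all 9 genes were smaller. That of BMI1 went from 0.21 to 0.14, and its edgeR adjusted p from 0.00522 to 7.96e-06. The edgeR adjusted p of EZH1 went from 0.0112 to 0.00116. BMI1, with 455 raw counts over the 6 libraries, had the fewest of the 9 genes.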

Other observations

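The 3 members with the largest fold changes in size were set against the other tested genes with at least 100 normalized counts on average. The measure was the Pearson r of log2 normalized counts over the 6 libraries. JARID2 ran closest to SNHG15 (r = 0.9996), ZMYND11 (0.9995) and PCLAF (0.9988), and 1236 of 11064 genes had an r over 0.95 with it. CBX7 ran closest to LINC00342 (0.9915), SLC43A1 (0.9897) and MOB1B (0.9861), with 42 genes over 0.95. BMI1 ran closest to DAG1 (0.9955), CDK10 (0.9934) and FAM169A (0.9904), with 75 of 11065 genes over 0.95. The 6 points share their libraries and fall in 2 groups. The genes closest to BMI1 differed little between the groups, with log2 fold changes of -0.085 for DAG1, -0.14 for CDK10 and -0.095 for FAM169A and edgeR adjusted p of 0.0706, 0.028 and 0.171. MOB1B, beside CBX7, had 0.17 with an edgeR adjusted p of 0.0522.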
